A study of Komagataella phaffii GS115 with 3 samples.

Results

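The genes described are 8 of the 5040 measured in the budding yeast Komagataella phaffii (formerly Pichia pastoris) and belong to growth on carbon sources other than plentiful glucose. They were chosen by locus tag, with the names GTH1 (high-affinity glucose transporter), GUT1 (glycerol kinase), ADH2 (alcohol dehydrogenase), ACS1 (acetyl-CoA synthetase), ICL1 (isocitrate lyase), MLS1 (malate synthase), PCK1 (phosphoenolpyruvate carboxykinase) and FBP1 (fructose bisphosphatase). The names came with the choice of the genes. The deposited tables and the RefSeq gene table used here list locus tags without names or products, so the identities were not checked further. RNA-seq of ribosome-depleted RNA was available from 3 libraries, 1 per group. They were GS115 treated with H2O2, an hmt-deficient derivative of GS115 in regular culture without treatment, and untreated GS115 in regular culture. GS115, the parent of all 3 cultures, is a histidine auxotroph used as a protein expression host. The sources used here do not give the medium, its carbon source, the dose and duration of H2O2, the identity of hmt, how it was disrupted or how many clones were grown. The loss of hmt could therefore not be checked at its own transcript.

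In many yeasts, glucose represses the genes for using other carbon sources, and the repression is lifted when glucose runs low. Ethanol then enters metabolism through alcohol dehydrogenase, aldehyde dehydrogenase and acetyl-CoA synthetase. The glyoxylate cycle, whose specific enzymes are isocitrate lyase and malate synthase, turns acetyl-CoA into dicarboxylic acids, and phosphoenolpyruvate carboxykinase and fructose bisphosphatase carry the carbon back to hexose phosphates. In Saccharomyces cerevisiae the kinase Snf1, the repressor Mig1 and the activators Cat8 and Adr1 control many of these genes. Komagataella phaffii also uses methanol, and its glycerol and methanol pathways are under carbon source control as well.

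Levels are given as FPKM (fragments divided by the length of the gene and by the fragment total of the library), which allows genes of different length to be compared. The fragment totals recovered from the values were 22355490 for the H2O2-treated, 18281706 for the hmt-deficient and 15358144 for the untreated library. Every one of the 8 genes was above 10 FPKM in all 3 libraries, and each level rested on 813 to 441044 fragments. Each group is 1 library, so differences cannot be set against a spread between replicates, and the exact 95% intervals given cover counting error only. In a bulk culture, fewer cells expressing a gene and less RNA of it per cell cannot be told apart. None of the 8 genes overlapped another in the gene table (0 of 8). Reads shared with near-identical copies elsewhere were not checked.

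After H2O2, 7 of the 8 genes were at least 2-fold lower than in untreated GS115, as were 25.8% of 4964 genes compared, and ADH2 was 4.27-fold higher, with 8.88% of genes at least 2-fold higher. The sum of the 7 genes other than ADH2 was 328 FPKM in the H2O2-treated, 5245 FPKM in the hmt-deficient and 7514 FPKM in the untreated library, which was 0.0306%, 0.561% and 0.738% of all FPKM. The sum in the hmt-deficient strain was thus nearer to the untreated than to the H2O2-treated one, but with a different composition. In it, GTH1 and ACS1 were over 10-fold lower than in untreated GS115, while ICL1, PCK1 and FBP1 were 3.21-fold to 4.92-fold higher; of 4992 genes, 11.0% were at least 2-fold lower and 11.1% at least 2-fold higher. The 8 genes did not move as 1 set in either comparison.

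**Figure D1:**
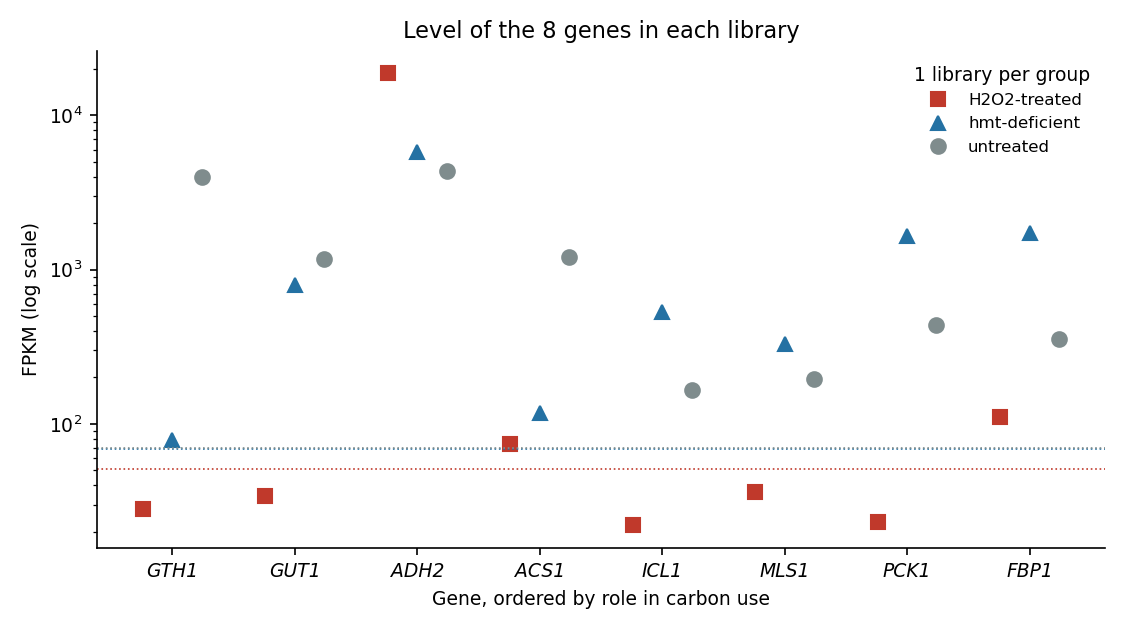
Level of each gene in FPKM (log axis) in the H2O2-treated, hmt-deficient and untreated library, from left to right for each gene, 1 point per library; dotted lines mark the median FPKM of all genes (51.1, 68.3 and 69.8, in that order). The H2O2-treated library gives the lowest point for 7 genes and the highest for ADH2, and the hmt-deficient library gives the highest for ICL1, MLS1, PCK1 and FBP1.

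The first step of carbon use, uptake and entry, is represented by GTH1 and GUT1. GTH1 (PAS_chr1-3_0011), which imports glucose with high affinity, stood at 27.9 FPKM in the H2O2-treated, 78.5 FPKM in the hmt-deficient and 3987 FPKM in the untreated library. It was thus abundant in untreated GS115, at rank 18 of 5040 genes, and below or near the middle of all genes elsewhere, where its rank was 3598 (H2O2-treated) and 2239 (hmt-deficient). Against untreated GS115 it was 143-fold lower after H2O2 (interval 135 to 152) and 50.8-fold lower in the hmt-deficient strain (48.8 to 52.9). Only 6 of 4964 genes, itself included, had a log2 ratio as low after H2O2, and 2 of 4992 in the hmt-deficient strain. GUT1 (PAS_chr4_0783) phosphorylates glycerol after it has entered the cell. Its level was 34.3 FPKM in the H2O2-treated, 796 FPKM in the hmt-deficient and 1173 FPKM in the untreated library. GUT1 and GTH1 were both low after H2O2, but in the hmt-deficient strain GUT1 was nearer to its untreated level. It was 34.2-fold lower after H2O2 (32.4 to 36.1) and 1.47-fold lower in the hmt-deficient strain (1.45 to 1.498), which is under 2-fold.

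Ethanol and acetate use is represented by ADH2 and ACS1, which stood apart from each other. ADH2 (PAS_chr2-1_0472), an alcohol dehydrogenase, reached 18736 FPKM in the H2O2-treated, 5795 FPKM in the hmt-deficient and 4383 FPKM in the untreated library. It was the highest of the 8 genes in each library and among the most abundant transcripts of each, at rank 3, 9 and 15. After H2O2 it alone made up 1.75% of all FPKM, against 0.430% in untreated GS115, and 98.3% of the summed FPKM of the 8 genes, against 36.8%. The difference was 4.27-fold after H2O2 (4.24 to 4.31) and 1.32-fold in the hmt-deficient strain (1.31 to 1.34), the second of which is under 2-fold. ACS1 (PAS_chr2-1_0767) activates acetate to acetyl-CoA. It stood at 74.0 FPKM in the H2O2-treated, 117 FPKM in the hmt-deficient and 1199 FPKM in the untreated library. Like GTH1, it was high only in untreated GS115. It was 16.2-fold lower after H2O2 (15.6 to 16.8) and 10.2-fold lower in the hmt-deficient strain (9.90 to 10.5), where 22 of 4992 genes had a ratio as low. Within a library, ADH2 exceeded ACS1 253-fold after H2O2 (245 to 262) and 49.4-fold in the hmt-deficient strain (47.9 to 50.9), against 3.65-fold in untreated GS115 (3.61 to 3.70).

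The glyoxylate cycle enzymes had the lowest levels of the set in untreated GS115. ICL1 (PAS_chr1-4_0338), which splits isocitrate into glyoxylate and succinate, stood at 22.0 FPKM in the H2O2-treated, 534 FPKM in the hmt-deficient and 167 FPKM in the untreated library. MLS1 (PAS_chr4_0191), which joins glyoxylate with acetyl-CoA, stood at 36.2 FPKM in the H2O2-treated, 329 FPKM in the hmt-deficient and 196 FPKM in the untreated library. Both were lowest after H2O2 and highest in the hmt-deficient strain. ICL1 was 7.56-fold lower after H2O2 (7.01 to 8.15) and, in the hmt-deficient strain, 3.21-fold higher (3.10 to 3.32). MLS1 was 5.41-fold lower after H2O2 (5.10 to 5.74) and, in the hmt-deficient strain, 1.68-fold higher (1.63 to 1.74), under the 2-fold threshold. The order of these enzymes changed between libraries. ICL1 was 1.62-fold above MLS1 in the hmt-deficient strain (1.58 to 1.66), whereas it was below MLS1 both after H2O2, with a ratio of ICL1 to MLS1 of 0.608 (0.557 to 0.664), and in untreated GS115, with a ratio of 0.850 (0.816 to 0.885).

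The gluconeogenic enzymes, like those of the glyoxylate cycle, were highest in the hmt-deficient and lowest in the H2O2-treated library. PCK1 (PAS_FragB_0061), which forms phosphoenolpyruvate from oxaloacetate, stood at 23.2 FPKM in the H2O2-treated, 1654 FPKM in the hmt-deficient and 439 FPKM in the untreated library. It was 18.9-fold lower after H2O2 (17.7 to 20.3) and, in the hmt-deficient strain, 3.77-fold higher (3.70 to 3.85). FBP1 (PAS_chr3_0868), which removes a phosphate from fructose bisphosphate, stood at 110.1 FPKM in the H2O2-treated, 1735 FPKM in the hmt-deficient and 353 FPKM in the untreated library. It was 3.20-fold lower after H2O2 (3.06 to 3.36), the smallest decrease among the 7 lower genes, and 4.92-fold higher (4.78 to 5.06) with hmt deficient, the largest increase among the 8. PCK1 and FBP1 were near each other in the hmt-deficient strain, with a PCK1 to FBP1 ratio of 0.953 (0.940 to 0.966), and in untreated GS115, with 1.24 (1.20 to 1.28). After H2O2 the ratio was 0.210 (0.195 to 0.227).

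**Figure D2:**
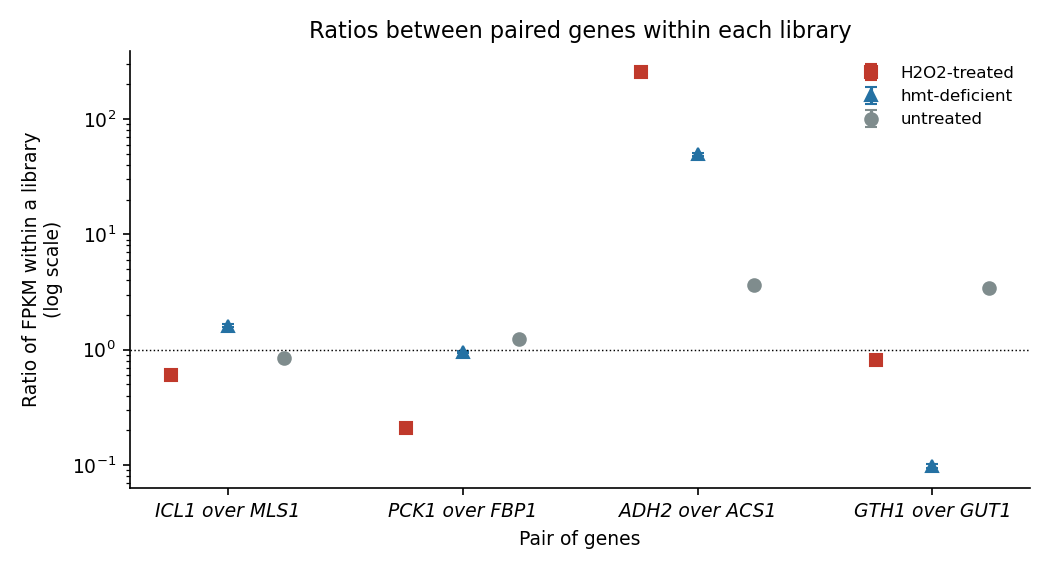
Ratio of FPKM between genes of neighbouring roles within each library (log axis), with exact 95% counting intervals, mostly smaller than the symbols; for each pair the H2O2-treated, hmt-deficient and untreated library stand from left to right. The ADH2 to ACS1 ratio is 253, 49.4 and 3.65, and the GTH1 to GUT1 ratio is 0.813, 0.0985 and 3.40, in that order.

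Past 4-fold after H2O2 were 6 of the 8 genes in the lower direction, against 6.89% of all genes, and 1 in the higher direction, against 2.60%. The median log2 ratio (FPKM plus 1) was -3.43 for the 8 genes and -0.38 for all genes. Relative to that shift of all genes, the 7 lower genes ran from -1.29 for FBP1 to -6.73 for GTH1 on the log2 scale, and ADH2 was at 2.48. Among the 993 genes of highest mean expression, the top 20%, which held 5 of the 8, the log2 ratio had a median of 0.02. Of these genes, 18.4% were at least 2-fold lower and 16.8% at least 2-fold higher.

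Between the hmt-deficient strain and untreated GS115, 2 of the 8 genes were lower (GTH1 and ACS1), 3 were higher (ICL1, PCK1 and FBP1) and 3 differed by under 2-fold (GUT1, ADH2 and MLS1). All 8 were among the 999 genes of highest mean expression (the top 20%), of which 17.0% were at least 2-fold lower and 14.1% at least 2-fold higher. At 4-fold GTH1 and ACS1 were still lower, beside 100 of 4992 genes, and only FBP1 was higher, against 3.33% of all genes. The median log2 ratio was 0.57 for the 8 genes and -0.07 for all genes, and the single values ran from -5.65 to 2.30. The lower pair are a transporter and an acetate-activating enzyme, and the higher 3 are enzymes of the glyoxylate cycle and gluconeogenesis.

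Since these comparisons share the untreated library, the log2 ratios are given side by side, the H2O2-treated before the hmt-deficient library. ICL1 (-2.86 and 1.67), PCK1 (-4.18 and 1.91) and FBP1 (-1.67 and 2.30) were lower with H2O2 and higher with hmt deficient. GTH1 (-7.11 and -5.65) and ACS1 (-4.00 and -3.34) were lower in each. GUT1 (-5.06 and -0.56) and MLS1 (-2.40 and 0.75) were past 2-fold only with H2O2, in the lower direction, and so was ADH2 (2.10 and 0.40) in the higher direction. A difference between those effects and the effects of hmt deficiency was not tested, for lack of replicates.

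The hmt-deficient strain was also set directly against the H2O2-treated library, a comparison in which strain and treatment differ together. Here 6 of the 8 genes were at least 2-fold higher, against 23.0% of 4966 genes, and 1 was lower, against 6.50%. At 4-fold 5 were higher, against 5.54%, and 0 lower, against 0.906%. The median log2 ratio was 3.56 for the 8 genes and 0.34 for all genes. PCK1 was 71.4-fold higher (66.8 to 76.4), and 4 of the 4966 genes, itself included, had a ratio as high. ICL1 was 24.2-fold higher (22.6 to 26.0), GUT1 23.2-fold (22.0 to 24.5), FBP1 15.8-fold (15.1 to 16.4) and MLS1 9.09-fold (8.60 to 9.62). GTH1 was 2.81-fold higher (2.61 to 3.03), a log2 ratio of 1.46. Relative to genes of like coding length the log2 ratio of GTH1 was 0.99, just under 2-fold, and other scalings and centrings put it between 1.07 and 1.65. ACS1 was 1.59-fold higher (1.52 to 1.66), under 2-fold, and ADH2 was 3.23-fold lower (3.21 to 3.25).

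**Figure D3:**
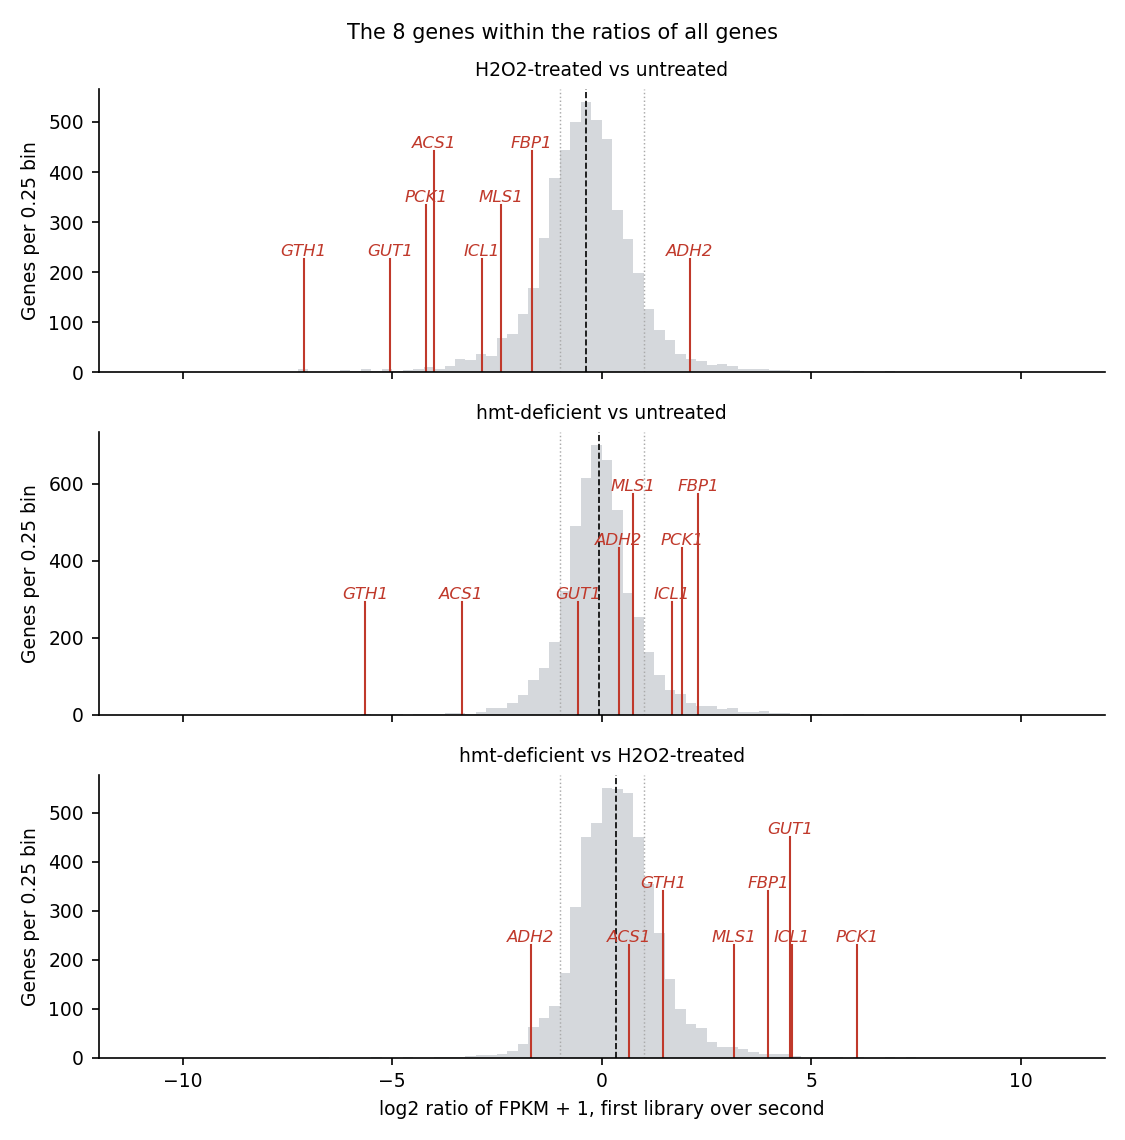
Distribution of the log2 ratio of FPKM plus 1 over all genes with at least 10 FPKM in 1 of the libraries compared (grey, number of genes per bin), with each of the 8 genes as a red line whose height carries no value; dashed lines mark the median of all genes and dotted lines 2-fold. After H2O2, 7 genes lie left of the 2-fold line and ADH2 right of it; in the hmt-deficient strain against untreated GS115, GTH1 and ACS1 lie to the left and ICL1, PCK1 and FBP1 to the right.

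The order of the 8 genes by level differed between libraries. After H2O2 it was ADH2, FBP1, ACS1, MLS1, GUT1, GTH1, PCK1 and ICL1, from high to low. MLS1 and GUT1 did not differ beyond counting error (ratio 1.06, interval 0.981 to 1.14), nor did PCK1 and ICL1 (1.05, 0.954 to 1.16). In the hmt-deficient strain the order was ADH2, FBP1, PCK1, GUT1, ICL1, MLS1, ACS1 and GTH1. In untreated GS115 it was ADH2, GTH1, ACS1, GUT1, PCK1, FBP1, MLS1 and ICL1. In these 2 libraries every pair of neighbours in the order differed beyond counting error, the closest being ACS1 over GUT1 in untreated GS115 (1.02, 1.01 to 1.04). GTH1 therefore stood second in untreated GS115 and last in the hmt-deficient strain.

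Taken over the 3 libraries, GTH1 varied most, with its highest level 143 times its lowest, followed by PCK1 with 71.4 times and GUT1 with 34.2 times. ADH2 varied least, by 4.27 times. Likeness between genes was measured as the Euclidean distance between their log2 levels (FPKM plus 1) in the 3 libraries, each taken relative to the gene's own mean. ICL1 and FBP1 were the closest pair of the set, at a distance of 0.84, followed by ICL1 and MLS1 at 1.00, MLS1 and FBP1 at 1.10, and ICL1 and PCK1 at 1.19. The member nearest to GTH1 was ACS1, but at a distance of 2.28. Every member had genes outside the set closer to it than its nearest member. For PCK1 there were 3, for ICL1 11, for FBP1 14, for GTH1 18, for GUT1 79, for MLS1 181 and for ACS1 747. These counts are out of 4990 genes outside the set, and the set itself is small. Some closer gene outside it was therefore likely for any member, and the counts do not decide whether the pairs set the members apart. ADH2 was 3.82 away from its nearest member, MLS1, and 4854 of the 4990 other genes were closer to ADH2 than that.

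Among the 4990 other genes, those most like the median pattern of the 8 were PAS_chr1-3_0290 and PAS_chr1-4_0377, each at a distance of 0.20, and PAS_chr2-2_0186 at 0.27. PAS_chr1-3_0290 stood at 2.03 FPKM in the H2O2-treated, 38.1 FPKM in the hmt-deficient and 21.3 FPKM in the untreated library. PAS_chr1-4_0377 stood at 1.93 FPKM in the H2O2-treated, 30.3 FPKM in the hmt-deficient and 16.9 FPKM in the untreated library. PAS_chr2-2_0186 was more abundant, at 18.7 FPKM in the H2O2-treated, 196 FPKM in the hmt-deficient and 159 FPKM in the untreated library. Each of the 3 was lowest after H2O2 and highest in the hmt-deficient strain. That order follows from choosing them by likeness to the median pattern, and not all of the 8 genes share it. The gene most like GTH1 was PAS_chr1-4_0481 (distance 0.40), at 48.9 FPKM in the H2O2-treated, 93.7 FPKM in the hmt-deficient and 6445 FPKM in the untreated library. Both were abundant in untreated GS115 alone, where a higher level than elsewhere follows from the choice by likeness. The gene most like MLS1 was PAS_chr3_0303 (0.01), at 98.2 FPKM in the H2O2-treated, 868 FPKM in the hmt-deficient and 519 FPKM in the untreated library. For ADH2 it was PAS_chr4_0684 (0.15), at 794 FPKM in the H2O2-treated, 280 FPKM in the hmt-deficient and 208 FPKM in the untreated library. For the remaining members the nearest genes were PAS_chr2-1_0874 (GUT1, distance 0.42), PAS_chr2-2_0336 (ACS1, 0.29), PAS_chr1-1_0037 (ICL1, 0.41), PAS_chr1-1_0356 (PCK1, 0.41) and PAS_chr4_0756 (FBP1, 0.38). PAS_chr2-2_0336 was at only 0.39 FPKM in the H2O2-treated and 1.92 FPKM in the hmt-deficient library. PAS_chr1-1_0356 was at 0.85 FPKM in the H2O2-treated library. At such levels the added 1 FPKM shapes the pattern, so the closeness of both to their members depends on it. The same limit applies to PAS_chr1-3_0290 and PAS_chr1-4_0377, at 2.03 and 1.93 FPKM in the H2O2-treated library, and to their closeness to the median pattern. Over 3 libraries this measure can tell few patterns apart, and the sources used here give none of these tags a function.

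The 8 genes are scattered over the 4 chromosomes. GTH1 was the gene at position 6 and PCK1 at position 9 from an end of chromosome 1, and the others lay 155 or more genes from an end. Of the 16 genes flanking them, 6 were at least 2-fold lower after H2O2 (25.8% of all genes) and 1 was higher (8.88% of all genes), with a median log2 ratio of -0.77 beside -0.38 for all genes. Those lower were PAS_chr1-3_0010 (-2.85) and PAS_chr1-3_0013 (-2.63) beside GTH1, PAS_chr4_0784 (-3.33) beside GUT1, PAS_chr2-1_0768 (-1.11) beside ACS1, PAS_chr1-4_0336 (-1.36) beside ICL1 and PAS_chr4_0192 (-1.24) beside MLS1. In each case the log2 ratio of the flanking gene was nearer to 0 than that of the member beside it. PAS_chr3_0869, next to FBP1, was higher (1.86) while FBP1 was lower. In the hmt-deficient strain, where 11.0% of all genes were lower and 11.1% higher than in untreated GS115, 1 flanking gene was lower, PAS_chr1-4_0336 (-1.46) beside ICL1, which was higher. The 2 flanking genes that were higher were PAS_chr3_0869 (1.33) beside FBP1 and PAS_chr2-1_0471 (1.11) beside ADH2. Both neighbours of GTH1 stayed under 2-fold there (-0.33 and -0.55), beside the -5.65 of GTH1 itself. In the direct comparison of the hmt-deficient with the H2O2-treated library, 7 of the 16 were higher (23.0% of all genes) and 0 were lower (6.50% of all genes), with a median log2 ratio of 0.85 beside 0.34 for all genes. These 7 were PAS_chr1-3_0010, PAS_chr1-3_0013, PAS_chr4_0784, PAS_chr2-1_0471, PAS_chr2-1_0768, PAS_chr4_0192 and PAS_FragB_0059, with log2 ratios up to 3.02.

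**Figure D4:**
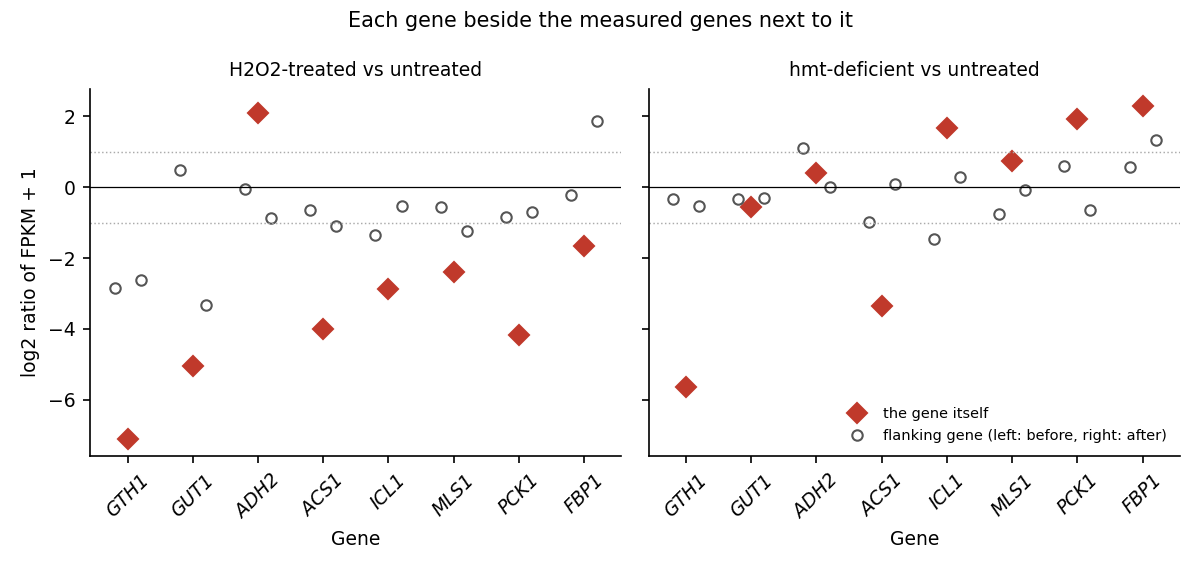
Log2 ratio of FPKM plus 1 for each of the 8 genes (diamonds) and the measured gene on each side of it (circles), with H2O2 treatment on the left and hmt deficiency on the right, both over untreated GS115; dotted lines mark 2-fold. Both genes beside GTH1 are lower after H2O2 (-2.85 and -2.63) but under 2-fold in the hmt-deficient strain (-0.33 and -0.55).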

How the data were processed

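RNA-seq of 3 Komagataella phaffii cultures was used, 1 library per group, grouped by title. Per the labels' protocols, TRIzol-extracted RNA was depleted of ribosomal RNA and made into stranded paired-end libraries. HISAT2, HTSeq, featureCounts, Trimmomatic 0.39 and FastQC 0.12.1 are listed without roles, per the submitters' processing notes; the sources used here name neither build nor annotation. Per gene, the authors deposited FPKM, per the file headers. They also deposited a normalized signal, which in the H2O2-treated library equalled FPKM (5040 of 5040 genes) and in the hmt-deficient library was 1.14 times FPKM, and served as an alternative. Gene lengths and gene order came from RefSeq assembly ASM2700v1, in which all 5040 locus tags were found.

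FPKM times coding length gave fragments once a library total was fitted; 94.5% of 292, 94.7% of 457 and 96.8% of 3557 checkable values (H2O2-treated, hmt-deficient, untreated) lay within 0.1 of a whole number. Genes with at least 10 FPKM in 1 library of a pair were compared by log2 of FPKM plus 1, which understates the change of low genes, and called at 2-fold. Ratios carry exact 95% intervals from the recovered fragments. With 1 library per group no test between conditions was run. The steps were tested on simulated data that held counting error only and changes well above 2-fold. The recovery of changes near 2-fold and the spread between cultures were not tested in this way. Named are the 8 genes, the 3 genes nearest to their median pattern, the gene nearest to each, and flanking genes past 2-fold, with both neighbours of GTH1. A wider list of pathway genes was to be matched by product text, but matched 0 genes, since no table used here gives products. No sequence was used, and promoter motifs were not analysed here. Alternatives changed the pseudocount, the minimum, the threshold, the scaling or the centring, or left out 1 of the 8 genes. The genes and lists were chosen with earlier results of these data known. Python 3.11.15, numpy 2.4.6, pandas 2.3.3, scipy 1.17.1 and matplotlib 3.10.9 were used.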

Additional observations from a re-analysis of the deposited data

How the results depend on the processing

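No paired analysis was possible because each group holds 1 library. Of 264 ratios of single genes under other pseudocounts, minima, scalings and centrings, 56 were equal to the reported value by construction (both minima, and the authors' normalized column after H2O2) and could not change. Of the other 208, 1 lost its call (lower, higher or under 2-fold) and 0 changed sign. That one is GTH1 in the hmt-deficient against the H2O2-treated library, with a log2 ratio of 0.99 relative to genes of like coding length, 1.46 as reported and 1.07 to 1.65 under the other settings. A 4-fold threshold, stricter by construction, left 1 of 3 genes higher in the hmt-deficient strain than in untreated GS115, and 0 of 1 lower than after H2O2. The 2 genes lower in the hmt-deficient strain than in untreated GS115 stayed lower at 4-fold. The median log2 ratio of the 8 genes after H2O2 was -3.43. It became -3.30 with a pseudocount of 5, -3.05 and -3.08 after subtracting the median or the trimmed mean of all genes, -2.89 and -3.22 relative to genes of like coding length or like expression, and -2.86 or -4.00 when 1 gene was left out. For the hmt-deficient strain against untreated GS115 it was 0.57. It became 0.70 as TPM, 0.68 without the 20 highest genes, 0.77 with the authors' normalized column, 0.73 relative to genes of like expression, and 0.75 or 0.40 when 1 gene was left out. For the hmt-deficient against the H2O2-treated library it was 3.56. It became 3.75 as TPM and 3.75 with the authors' normalized columns, 3.22 and 3.24 after subtracting the median or the trimmed mean, 3.19 relative to genes of like coding length, and 3.97 or 3.15 when 1 gene was left out. Scalings and centrings shift all ratios by construction. For all genes, subtracting the median of all ratios put 743 lower and 767 higher after H2O2, where 1283 and 441 were called without it. Each level rests on 813 or more fragments, and counting error left the order of MLS1 and GUT1, and of PCK1 and ICL1, undecided after H2O2. The spread between replicates is unknown.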
